A study of Mus musculus with 22 samples.

Results

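The 36 genes described here are Trp53, which encodes the mouse p53 protein, and 35 genes known as p53 targets or as regulators that p53 itself induces. They were taken by name from the 52636 genes of the deposited expression table, and each name was found. RNA was sequenced from organoids grown from the duodenal epithelium of wild-type adult mice (outbred CD1 strain, 2 months old), after exposure to cold atmospheric plasma (CAP), a partly ionised gas that loads the culture medium with reactive oxygen and nitrogen species. The 22 libraries come from 4 organoid lines, numbered 1 to 4. All 4 lines were sequenced untreated, and lines 1, 2 and 4 also under 6 treatments, which makes 3 libraries per treated group.

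p53 is a transcription factor that is kept low by the ubiquitin ligase Mdm2 and is stabilised when DNA is damaged or when cells are stressed. It binds response elements near its target genes and raises the transcription of cell cycle brakes, death effectors, DNA repair factors and its own inhibitors, so that the response limits itself. Because p53 is controlled mostly as a protein, the level of its mRNA says little about its activity. In the intestinal crypt, p53 is known for the death and the arrest of stem and progenitor cells after irradiation. p53 protein was not measured in these libraries.

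All treated cultures met a helium plasma jet set to 50 W for 60 s, or medium treated with it. Direct CAP means that organoids 1 day after seeding sat under the jet in their own medium, which was exchanged after 30 min or after 24 h. In indirect CAP the organoids received the medium of another treated culture, and with plasma-activated medium (PAM) they received medium treated in the absence of organoids. These conditioned media were added either at day 1, to be followed by fresh medium, or at day 2, until the culture ended at day 3. The deposited labels call the 2 groups from day 1 "30 minutes" and the 2 groups from day 2 "24 hours", whereas the study's text and the headings of its supplementary table give day 1 and day 2, which are the names used here. The time at which the direct 30 min cultures were collected is not certain. The labels give passage 12 for line 1, 14 for line 2 and 4 for lines 3 and 4. Line 3 was used only untreated.

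Each value is a read count brought to a library size of 20 M reads (M for mega) and rounded up. Gene length is not taken into account. The depth behind them was estimated from the spacing of low values at 19.8 to 28.7 M reads, with a median of 22.55 M, so that a value of 100 rests on about as many reads. Markers of the intestinal epithelium were high in each library, with a summed value of 8 markers of at least 153285, while 6 fibroblast markers summed to between 2 and 17 and the fibroblast marker Lum was listed at 0 throughout. The sum of 4 endothelial markers was 13 to 64. For 6 immune markers it was 326 to 368 untreated and 481 to 514 with PAM from day 2. Most of this came from Csf1r (241 to 334 over all libraries) and Cd52 (67 to 231), and its source was not tested. The labels call the cells stem cells. The summed value of the 4 stem cell markers Lgr5, Olfm4, Ascl2 and Smoc2 was 28399 to 33368 in untreated organoids, 17213 to 26825 after direct CAP for 30 min, 4515 to 8518 after direct CAP for 24 h, 4840 to 12267 with indirect CAP from day 1, and 770 to 1998 with PAM from day 1. With exposure from day 2 it was 1951 to 2662 for indirect CAP and 650 to 1925 for PAM. The share of mitochondrially encoded reads was 1.24% to 1.54% untreated, 1.14% to 1.48% after direct CAP for 30 min and 0.789% to 1.50% in the 9 other libraries exposed from day 1, and 0.668% to 0.881% with exposure from day 2. Both quantities move with the groups compared below, and their part in the p53 target values was not tested. In such bulk samples, fewer cells of a type and less RNA per cell cannot be told apart.

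The main comparison asked what exposure from day 1 for 24 h does to the p53 program. Its exposed side pools 9 libraries, 3 each from direct CAP for 24 h and from both conditioned media added at day 1, and its other side holds the 4 untreated libraries. Of the p53 genes, 13 were called higher and 0 lower, where a call is a Benjamini-Hochberg adjusted p under 0.01 in limma's moderated test together with a log2 fold change of 1 or more in size. The genes called were Unc5b, Plk3, Ptp4a3, Phlda3, Plk2, Epn3, Eda2r, Ak1, Cdkn1a, Dcxr, Ccng1, Zmat3 and Rap2b. The test covered 35 of the 36 genes. Cyfip2, a subunit of the actin-regulating WAVE complex, was listed at 0 to 5 in all libraries and did not pass the filter (10 or above in 3 or more of the libraries fitted).

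Among all 18490 genes tested, 4.27% were called higher and 2.07% lower, against 37.1% and 0.0% of the p53 genes. The p53 genes were chosen with earlier results of these data known, so these shares are no independent test. The paper had already named Unc5b, Phlda3, Epn3, Plk2 and Plk3 as upregulated. The median log2 fold change was 0.70 over the p53 genes and -0.05 over all genes tested, and 30 of the 35 p53 genes had a positive value. Without a minimum fold, at an adjusted p under 0.05, 25 of the p53 genes were higher and 3 lower (14.8% and 18.7% of all genes). For 18 p53 genes each of the 9 exposed libraries lay above each untreated library (7.16% of all genes), and for Sesn1 each lay below (10.5%). These 19 genes had an exact two-sided permutation p of 0.0014 to 0.0028 on the difference of means, and 0.0014 is the smallest that 9 libraries against 4 allow. Full separation by itself puts the p at or near that minimum, so it adds nothing to the counts of separated genes. The permutation test also treats the 9 exposed libraries as independent, although they come from 3 lines, so these p-values do not account for the shared lines. Without the untreated libraries of lines 1 and 2, whose line labels are in doubt, 7 genes were called (Cdkn1a, Plk2, Plk3, Ptp4a3, Eda2r, Unc5b and Zmat3), with only 2 untreated libraries left, against 0.806% of all genes. Neither this fit nor the main fit holds a line term, so their difference cannot show whether the labels matter.

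**Figure D1:**
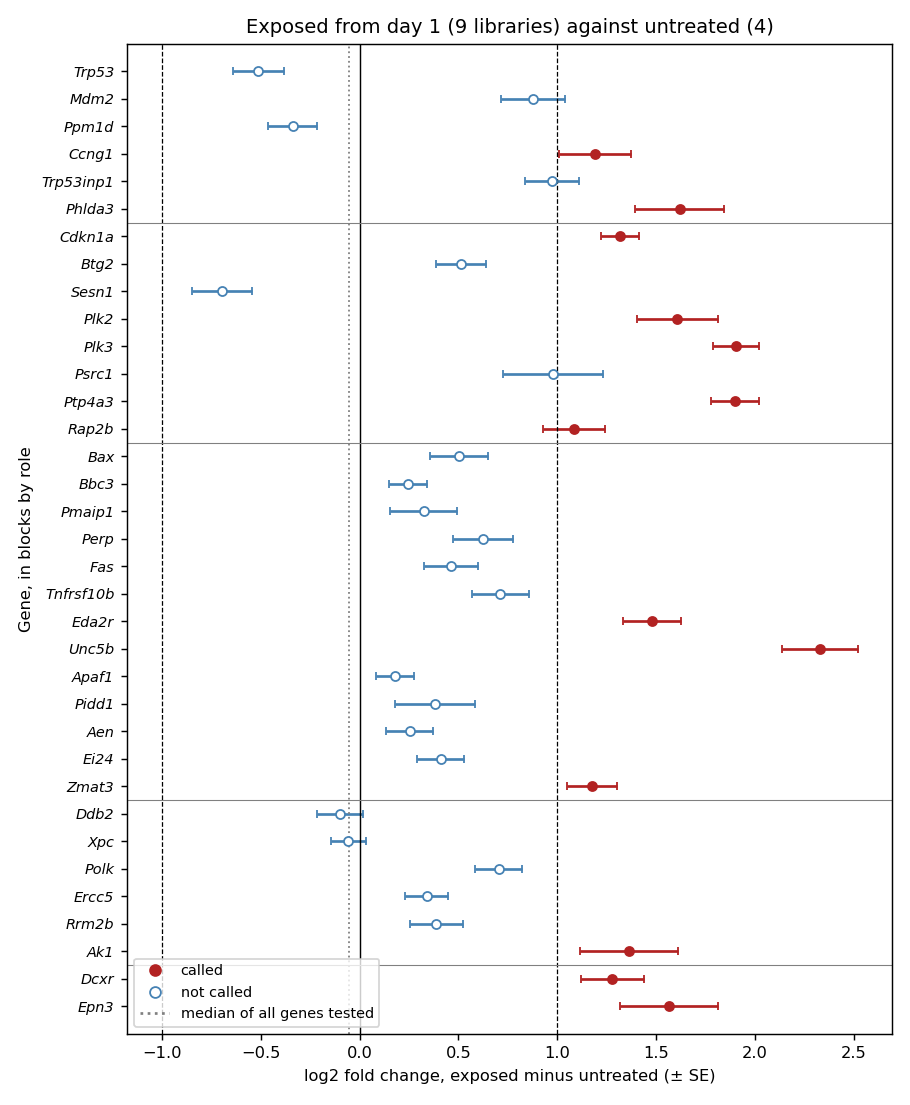
Log2 fold change of 35 p53 pathway genes between 9 libraries exposed from day 1 and 4 untreated libraries, on log2(value + 1), with bars for the standard error, dashed lines at -1 and 1 and genes in blocks by role. The 13 filled points are the genes called higher, from Rap2b at 1.09 to Unc5b at 2.33, and 5 genes lie below 0, with Sesn1 the lowest at -0.70.

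The first block holds p53 and the feedback around it. Phlda3 and Ccng1 were called higher here, while Trp53 and Ppm1d had negative values that were not called. Trp53 stood at 2614, 2066, 2238 and 2446 in the untreated libraries of lines 1 to 4 (values below follow this order, and the order 1, 2, 4 in treated groups), and at 1717, 1900 and 1432 after direct CAP for 24 h, 2191, 1893 and 1499 with indirect CAP from day 1 and 1632, 1402 and 1253 with PAM from day 1. All but 1 of the 9 exposed libraries lay below each untreated library. The log2 fold change of -0.51 ± 0.13 (± SE, as for all log2 values below) had an adjusted p of 0.00837 and missed the minimum fold. Mdm2, the ligase that marks p53 for destruction, was 913, 1345, 1548 and 1213 untreated, 2833, 1768 and 2767 after direct CAP for 24 h, 2124, 1714 and 2283 with indirect CAP from day 1 and 2927, 2101 and 2203 with PAM from day 1. All exposed libraries were above all untreated libraries, and the log2 fold change of 0.88 ± 0.16 (adjusted p 0.00141) was below the minimum fold.

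Phlda3, a small protein that holds back the survival kinase Akt, had the largest change of this block. Its values were 203, 322, 465 and 422 untreated, 1379, 802 and 1464 after direct CAP for 24 h, 859, 775 and 945 with indirect CAP from day 1 and 1455, 986 and 946 with PAM from day 1. The groups did not overlap, and the log2 fold change was 1.62 ± 0.22 (adjusted p 0.000278). Ccng1, a cyclin that guides a phosphatase to Mdm2, had, with Perp, the highest untreated levels of the 36 genes per length. It stood at 3314, 5014, 5953 and 4398 untreated, 13717, 8469 and 14037 after direct CAP for 24 h, 8882, 7843 and 9292 with indirect CAP from day 1 and 13952, 10710 and 9262 with PAM from day 1. Again no exposed library reached down to the untreated ones, and the log2 fold change was 1.19 ± 0.18 (adjusted p 0.000546).

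Trp53inp1, a cofactor that supports p53 in arrest and death, was just under the minimum fold. It was 805, 1049, 1345 and 1058 untreated, 2674, 1840 and 2221 after direct CAP for 24 h, 1932, 1804 and 1809 with indirect CAP from day 1 and 2550, 2073 and 1815 with PAM from day 1, with no overlap. Its log2 fold change was 0.97 ± 0.14 (adjusted p 0.000304) without a block and 1.09 (adjusted p 0.000331) when the line was fitted as a replicate block, which adds it to the calls. Line 3, which is untreated only, adds nothing to that fit. Ppm1d, the phosphatase that switches the damage response off, had a log2 fold change of -0.34 ± 0.12 (adjusted p 0.0493), and its untreated and exposed values overlapped.

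Cell cycle brakes and stress kinases held 5 of the 13 calls. Cdkn1a, whose product p21 blocks the cyclin-dependent kinases and is the best known p53 target, stood at 2142, 1868, 1986 and 1744 untreated. It was 4693, 5337 and 4522 after direct CAP for 24 h, 4107, 5165 and 4087 with indirect CAP from day 1 and 5283, 5772 and 4598 with PAM from day 1. Each exposed library was well above the highest untreated library, and the log2 fold change was 1.32 ± 0.097 (adjusted p 3.25e-06). The untreated mean was 1935 ± 170 (± SD, n = 4).

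Plk2 and Plk3 encode polo-like kinases that respond to stress and restrain the cell cycle. Plk3 went from 207, 224, 272 and 240 untreated to 761, 765 and 793 after direct CAP for 24 h, 847, 775 and 934 with indirect CAP from day 1 and 1087, 1066 and 976 with PAM from day 1. Its 3 direct 24 h values were nearly equal, and its log2 fold change of 1.90 ± 0.12 had the smallest adjusted p of the 35 genes, 5.05e-07. Plk2 was 413, 640, 796 and 666 untreated, 2187, 1480 and 1952 after direct CAP for 24 h, 1669, 1258 and 1763 with indirect CAP from day 1 and 3129, 2003 and 1880 with PAM from day 1. It did not overlap either, and line 1 was the lowest of the untreated libraries and the highest with PAM (log2 fold change 1.61 ± 0.20, adjusted p 0.000154).

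Ptp4a3, a phosphatase also called PRL-3, was 265, 224, 344 and 222 untreated and 1064, 837 and 998 after direct CAP for 24 h, 886, 1037 and 941 with indirect CAP from day 1 and 1081, 1112 and 823 with PAM from day 1. The exposed groups were close to each other and clear of the untreated one (log2 fold change 1.90 ± 0.12, adjusted p 6.64e-07). Rap2b, a small GTPase of the Ras family, was 423, 483, 526 and 511 untreated, 1077, 786 and 1336 after direct CAP for 24 h, 825, 733 and 1140 with indirect CAP from day 1 and 1327, 1090 and 1148 with PAM from day 1. It passed with a log2 fold change of 1.09 ± 0.16 (adjusted p 0.000359), but 58.3% of its exonic bases lie opposite other annotated genes, mainly B430305J03Rik. That gene was 294 to 366 untreated and 486 to 909 in the 9 exposed libraries, and since the strand setting of the counting is not given in the sources used here, reads of the 2 genes cannot be told apart.

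The other members of this block were not called. Psrc1, a microtubule-associated protein, had a log2 fold change of 0.98 ± 0.25 (adjusted p 0.00942), which became 1.20 (adjusted p 0.0012) and a call with the replicate block, where 15 genes were called in all (7.18% of all genes). Btg2, an inhibitor of proliferation, had 0.51 ± 0.13 (adjusted p 0.00697). Sesn1, a sestrin that dampens mTORC1 signalling, had the lowest log2 fold change of the 35 genes. It was 661, 810, 694 and 737 untreated, 552, 522 and 431 after direct CAP for 24 h, 479, 490 and 439 with indirect CAP from day 1 and 267, 498 and 411 with PAM from day 1. Its 9 exposed libraries were all lower than its 4 untreated ones, with a log2 fold change of -0.70 ± 0.15 (adjusted p 0.00378) that missed the minimum fold.

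**Figure D2:**
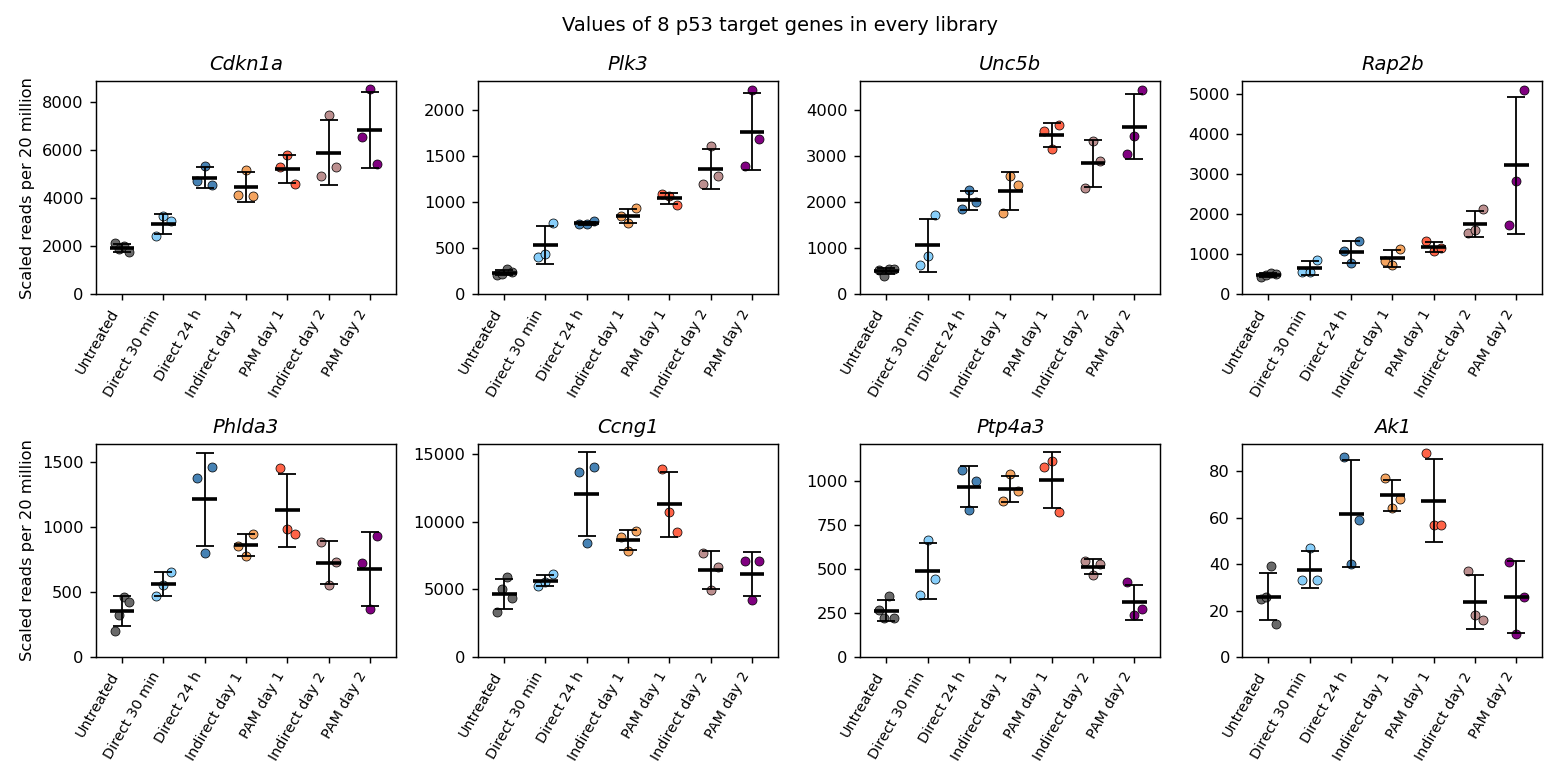
Scaled reads per 20 M of 8 genes in every library, with 1 point per library, a horizontal line for the group mean and bars for the SD (n = 4 untreated, n = 3 in each treated group), on axes that start at 0. In the upper row the highest mean is in PAM from day 2, up to 8525 for Cdkn1a in 1 library. In the lower row the exposures from day 1 for 24 h have the highest means.

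Of 14 cell death genes, 13 were tested and 3 were called higher, Unc5b, Eda2r and Zmat3, none of which is a member of the Bcl-2 family. All 13 had a positive log2 fold change. Unc5b, a netrin receptor that can trigger death when its ligand is missing, had the largest change of all 35 genes. It was 522, 394, 543 and 543 untreated, 1850, 2264 and 2000 after direct CAP for 24 h, 1767, 2574 and 2383 with indirect CAP from day 1 and 3550, 3163 and 3670 with PAM from day 1. The lowest exposed value, 1767, was far above the highest untreated one, 543, and the log2 fold change was 2.33 ± 0.19 (adjusted p 7.43e-06).

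Eda2r, the receptor for ectodysplasin A2, was 301, 380, 319 and 341 untreated, 1284, 797 and 1239 after direct CAP for 24 h, 719, 785 and 950 with indirect CAP from day 1 and 1016, 970 and 807 with PAM from day 1. Line 2 was the lowest of the 3 lines after direct CAP, though still above all untreated libraries (log2 fold change 1.48 ± 0.15, adjusted p 2.53e-05). Zmat3, an RNA-binding zinc finger protein, was 1552, 1850, 2016 and 1676 untreated, 4489, 3866 and 2966 after direct CAP for 24 h, 4233, 3826 and 4126 with indirect CAP from day 1 and 5509, 3669 and 3671 with PAM from day 1. No exposed library overlapped the untreated group (log2 fold change 1.18 ± 0.13, adjusted p 4.55e-05).

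The death effectors inside the cell were not called. Bax, which opens the mitochondrial outer membrane, was 1201, 1656, 1662 and 1899 untreated and 1805 to 3104 in the 9 exposed libraries, with 1 exposed library inside the untreated range (log2 fold change 0.50 ± 0.15, adjusted p 0.0179). Bax shares 12.2% of its exonic bases with Gm45808 on the same strand, which was 696 to 1080 untreated and 997 to 1737 exposed. Bbc3 and Pmaip1, which encode the Bcl-2 family proteins Puma and Noxa, had log2 fold changes of 0.24 ± 0.097 (adjusted p 0.0659) and 0.32 ± 0.17 (adjusted p 0.155), and both overlapped. Apaf1, the scaffold of the apoptosome, had 0.18 ± 0.095 (adjusted p 0.165).

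Death receptors and membrane proteins lay in between. Tnfrsf10b, the receptor for the death ligand TRAIL, had a log2 fold change of 0.71 ± 0.14 (adjusted p 0.00239) and Perp, a desmosome-linked membrane protein, 0.62 ± 0.15 (adjusted p 0.00702). Both had all exposed libraries above all untreated ones, and both fell short of the minimum fold. Fas, the receptor for the Fas ligand, had 0.46 ± 0.14 (adjusted p 0.0182), with 8 of 9 exposed libraries above the untreated range. Pidd1, the core of a caspase-2 activating complex, had 0.38 ± 0.20, Aen, a nuclease active in apoptosis, 0.25 ± 0.12, and Ei24, a membrane protein of the endoplasmic reticulum, 0.41 ± 0.12, with adjusted p of 0.159, 0.113 and 0.016.

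Of the 6 genes for DNA repair and nucleotides, 1 was called, Ak1, an adenylate kinase that balances the adenine nucleotides. It was 25, 26, 39 and 14 untreated, 86, 40 and 59 after direct CAP for 24 h, 77, 64 and 68 with indirect CAP from day 1 and 88, 57 and 57 with PAM from day 1. The lowest exposed value, 40, was next to the highest untreated one, 39, and at this level counting error adds to the spread (log2 fold change 1.36 ± 0.25, adjusted p 0.00141). Polk, a polymerase that copies past damaged bases, was 281 to 360 untreated and 431 to 680 exposed, with no overlap (log2 fold change 0.70 ± 0.12, adjusted p 0.000877).

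The factors that find damage in nucleotide excision repair had values near 0, with -0.10 ± 0.12 for Ddb2 (adjusted p 0.541) and -0.06 ± 0.088 for Xpc (adjusted p 0.656) on the log2 scale, and the sign of Xpc turned with quantile normalization. Ddb2 shares 23.8% of its exonic bases with Acp2 on the opposite strand, which was 605 to 766 in the exposed libraries and 611 to 694 untreated. Ercc5, the nuclease that cuts in the same pathway, had 0.34 ± 0.11 (adjusted p 0.0281). Rrm2b, the p53-inducible subunit of ribonucleotide reductase, had 0.39 ± 0.14 (adjusted p 0.0392), and both overlapped with the untreated range.

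Dcxr and Epn3 belong to none of these roles. Dcxr, a reductase of sugars and dicarbonyls, was 327, 367, 551 and 489 untreated, 1163, 891 and 1430 after direct CAP for 24 h, 817, 851 and 933 with indirect CAP from day 1 and 1104, 1063 and 1154 with PAM from day 1, without overlap (log2 fold change 1.28 ± 0.16, adjusted p 0.000142). Epn3, an epsin of endocytosis, was 678, 626, 728 and 858 untreated, 2136, 1564 and 2436 after direct CAP for 24 h, 1464, 1179 and 2324 with indirect CAP from day 1 and 3872, 2361 and 2975 with PAM from day 1. Among these exposures from day 1, PAM gave its highest values, in each line, and the log2 fold change was 1.57 ± 0.25 (adjusted p 0.000632).

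Per kilobase of exon, which allows genes to be compared, the untreated level was highest for Ccng1 (1330 ± 315, mean ± SD, n = 4), Perp (1317 ± 162) and Bax (1018 ± 185). Ccng1 and Perp differed by less than their spread, and Bax lay within 1 SD of Ccng1. Next came Btg2 (606 ± 96.6), Trp53 (579 ± 59.2) and Cdkn1a (545 ± 47.8), which did not differ beyond their spread either. Among the 13 genes called, Dcxr (379 ± 91) and Phlda3 (226 ± 74.8) followed, and Unc5b (79.98 ± 11.5), Rap2b (71.5 ± 6.69) and Eda2r (56.9 ± 5.78) were lower in that order. Ptp4a3 (28.2 ± 6.10) and Ak1 (10.03 ± 3.95) were near the bottom of the list. Perp and Bax, among the highest in untreated organoids, were not called in the main comparison, while Ptp4a3 and Ak1 were.

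Promoters are shown for the called genes whose start regions came closest to a p53 response element, which is a pair of copies of the p53 10-base motif with up to 13 bases between them. The search covered both strands of 300-base windows, from 250 bases before to 50 after each RefSeq start (assembly GRCm38.p6), and found windows for 26 of the 36 genes, 36 windows in all. A pair with no mismatch was in 1 of these windows, at the upstream start of Cdkn1a, and in 0.0731% of all 32851 windows. At most 1 mismatch was found for Cdkn1a, Ccng1, Polk and Bax, 4 of 36 windows, against 1.09% of all windows. Cdkn1a and Polk each have another window, where the best pair had 5 mismatches for Cdkn1a and 4 for Polk. For Polk that other window is the one at the start of the annotated gene. At most 2 mismatches added Aen and Sesn1 (7 windows, against 10.1%). The next called genes, Plk3, Ak1 and Dcxr, needed 3 mismatches, which 45.1% of all windows hold. The windows of Cdkn1a (chr17:29090729-29091028, plus strand) and Ccng1 (chr11:40755237-40755536, minus strand) read as follows, with the 2 motif copies in capitals. The copies start 73 bases before the Cdkn1a start, 12 bases apart, and 195 bases before the Ccng1 start, with no base between them. The search kept the pair with the fewest mismatches, whatever the spacing. In the Cdkn1a window the second copy runs directly into tgacatgttc, left in lower case, which has 1 mismatch to the motif. These neighbours also form a pair, with no base between them.
Cdkn1a: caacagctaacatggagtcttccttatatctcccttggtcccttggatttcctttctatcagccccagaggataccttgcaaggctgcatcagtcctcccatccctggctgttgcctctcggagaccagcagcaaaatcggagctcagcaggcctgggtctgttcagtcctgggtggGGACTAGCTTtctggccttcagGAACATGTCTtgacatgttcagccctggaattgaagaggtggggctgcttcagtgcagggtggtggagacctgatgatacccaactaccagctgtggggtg
Ccng1: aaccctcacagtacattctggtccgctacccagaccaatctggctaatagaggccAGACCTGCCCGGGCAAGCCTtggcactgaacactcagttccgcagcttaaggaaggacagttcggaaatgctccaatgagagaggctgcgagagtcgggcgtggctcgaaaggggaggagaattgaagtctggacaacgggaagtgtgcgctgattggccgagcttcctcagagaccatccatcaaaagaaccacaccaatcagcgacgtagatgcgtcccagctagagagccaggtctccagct
Polk and Bax hold a pair with 1 mismatch and 1 base between the copies, AAGCATATCC and AGGCAAGCTT in Bax and GAACTAGCCT and AAACTTATTC in Polk, and neither gene was called. A match is a description of letters and not evidence of binding.

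Set against the untreated libraries on its own, each group of 3 gave fewer or as many calls, and these comparisons share the same 4 untreated libraries. Direct CAP for 24 h gave 13 higher p53 genes (1.25% of all genes were called higher), indirect CAP from day 1 gave 7 (0.831%) and PAM from day 1 gave 13 (4.83%), with 0 lower. The direct 24 h count rests on single libraries, as it was 3 without the direct library of line 1, 7 without that of line 4, and 7, 5, 8 and 6 without the untreated library of lines 1, 2, 3 and 4. Trp53inp1 was called after direct CAP for 24 h (1.08) and with PAM (1.02), whereas Ak1 was called in neither. With the line as a replicate block, Ccng1, Trp53inp1 and Rap2b were lost after direct CAP, which left 10 calls (2.02% of all genes), Phlda3 was lost with PAM, which left 12 (7.81%), and Phlda3, Dcxr and Epn3 were gained with indirect CAP, which made 10 (1.81%).

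The application method made no called difference among the exposures from day 1. Between PAM and direct CAP for 24 h, 0 of the 35 genes were called (0.0% of all genes) and 3 had an unadjusted p under 0.05 in limma (10.4% of all genes), or 5 with the line as a replicate block (22.3%), where 0 were called (0.34%). The largest difference was Unc5b, higher with PAM by 0.77 ± 0.12 on the log2 scale (adjusted p 0.0847). Between indirect and direct CAP, 0 were called (0.0%) and 0 had an unadjusted p under 0.05 (6.95%), with differences from -0.45 for Phlda3 to 0.24 for Ak1. The groups share lines 1, 2 and 4, and with the line as a replicate block 0 were called (0.0%) and 13 had an unadjusted p under 0.05 (22.1%). A p that misses the threshold does not show that the methods act alike.

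Direct CAP for 30 min gave no call against the untreated libraries. Of the 35 genes 0 were called (0.00564% of all genes were), and 16 had an unadjusted p under 0.05 in limma (24.9% of all genes). For 14 genes each treated library lay above each untreated one (12.4% of all genes), and the median log2 fold change was 0.31, where direct CAP for 24 h had 0.70. The largest values were 1.13 ± 0.22 for Plk3, 0.96 ± 0.30 for Unc5b, 0.86 ± 0.15 for Eda2r and 0.85 ± 0.23 for Ptp4a3, with adjusted p between 0.1 and 0.119. Plk3 stood at 409, 433 and 777 and Unc5b at 636, 833 and 1712, so line 4 was the highest for both. Zmat3 was at 2862, 2929 and 3022, and its log2 fold change was 0.73 ± 0.097 (adjusted p 0.1). Cdkn1a was at 2438, 3243 and 3049, above its untreated values and below all its direct 24 h values.

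From 30 min to 24 h of direct CAP, 0 genes were called (0.0% of all genes) and 19 had an unadjusted p under 0.05 (21.4%), with a median difference of 0.48 on the log2 scale. With the line as a replicate block 1 of the 35 genes was called, a share of 2.86% against 1.13% of all genes. This was Dcxr, which was higher after 24 h by 1.06 ± 0.14 (adjusted p 0.00524). Its values were 457, 514 and 692 after 30 min and 1163, 891 and 1430 after 24 h. Unblocked differences were 1.07 ± 0.33 for Unc5b, 1.08 ± 0.24 for Phlda3, 1.06 ± 0.20 for Ccng1 and 0.74 ± 0.14 for Cdkn1a, each with an adjusted p of 0.205.

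**Figure D3:**
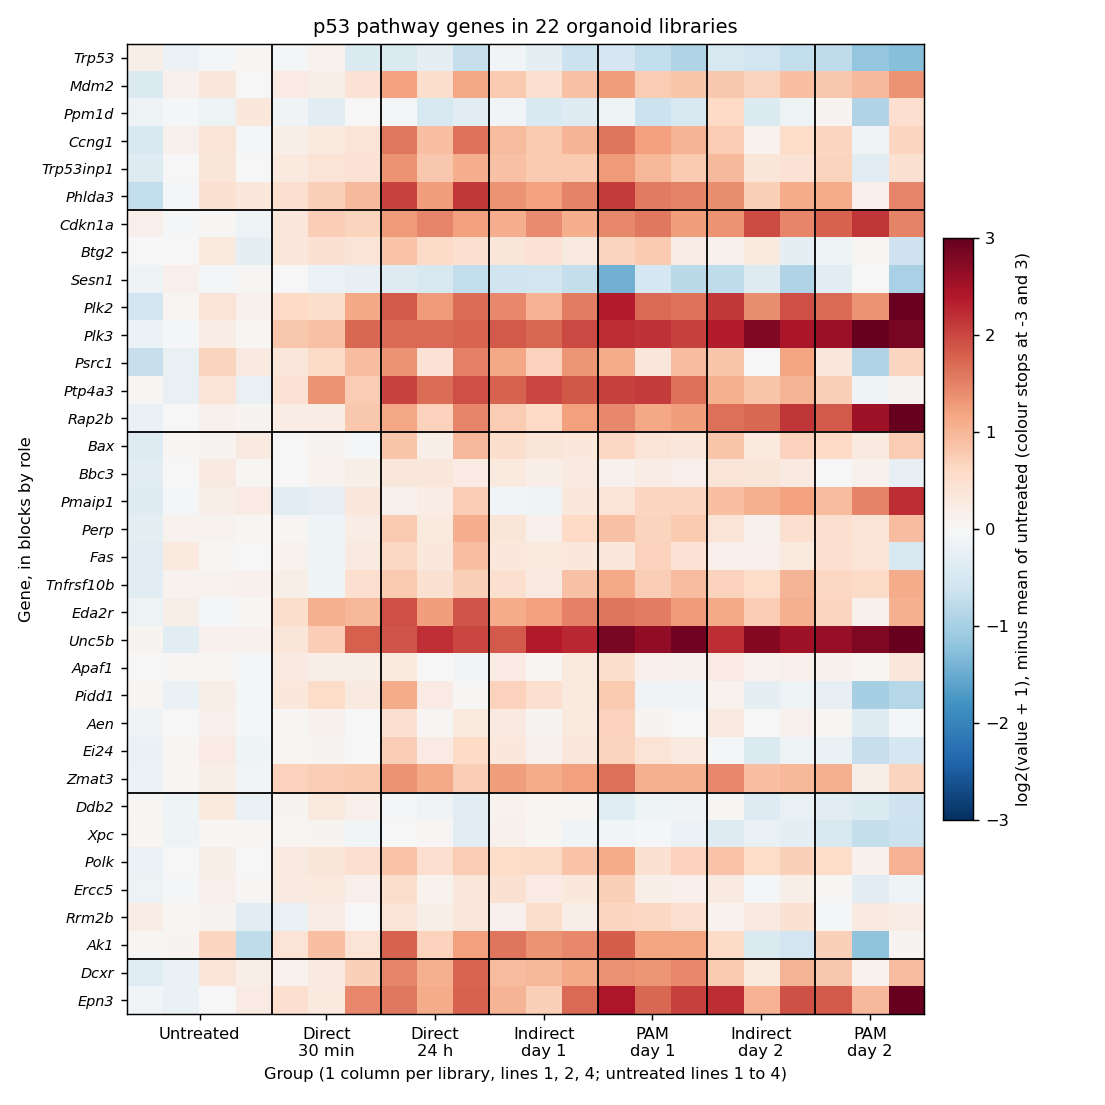
Colour map of log2(value + 1) minus the mean of the untreated libraries, for 35 genes in rows (blocks by role) and 22 libraries in columns (groups between vertical lines), with colours that saturate at 3 either way. Plk3, Unc5b and Rap2b stay red from exposure at day 1 to exposure at day 2, whereas Ptp4a3, Ak1 and Ccng1 are paler with exposure from day 2.

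Exposure from day 2 to day 3 left no recovery time before collection. Indirect CAP from day 2 gave 8 higher genes (6.2% of all genes) and 0 lower, and PAM from day 2 gave 8 higher (6.82%) and 1 lower (10.5%). The higher genes were Cdkn1a, Plk2, Plk3, Rap2b, Pmaip1, Unc5b, Zmat3 and Epn3 with indirect CAP, and Mdm2, Cdkn1a, Plk2, Plk3, Rap2b, Pmaip1, Unc5b and Epn3 with PAM. The lower gene was Trp53. Plk3 reached 1197, 1613 and 1281 with indirect CAP and 1393, 2219 and 1687 with PAM, for log2 fold changes of 2.52 ± 0.14 and 2.88 ± 0.17 (adjusted p 3.12e-05 and 0.000266). Unc5b was 2312, 3327 and 2896 and 3054, 3441 and 4431, for 2.5 ± 0.15 and 2.86 ± 0.17 (adjusted p 4.03e-05 and 0.000249). All of these values lay above every untreated library. With the line as a replicate block, Ptp4a3 was also called for indirect CAP, which makes 9 (10.6% of all genes). The PAM count of 9 in either direction was 5 when line 1 or line 2 was left out of the untreated group.

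Cdkn1a was 4925, 7447 and 5295 with indirect CAP from day 2 and 6539, 8525 and 5428 with PAM from day 2, with line 2 the highest in both. Its log2 fold changes were 1.59 ± 0.14 (adjusted p 0.000124) and 1.80 ± 0.15 (adjusted p 0.000321). Rap2b was 1529, 1613 and 2134 and 1740, 2841 and 5101, and with PAM the line 4 library stood far above the other lines, so that the SD was wide (3227 ± 1713, mean ± SD, n = 3). Its log2 fold changes were 1.84 ± 0.13 and 2.60 ± 0.31 (adjusted p 5.51e-05 and 0.000587), while the overlapping B430305J03Rik was 1036 to 1418 and 1114 to 3440.

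Of the 6 treated groups, Pmaip1 (Noxa) was called in the 2 exposed from day 2. It was 491, 615, 741 and 757 untreated, 700, 745 and 1063 after direct CAP for 24 h, 603, 594 and 805 with indirect CAP from day 1 and 856, 1005 and 1011 with PAM from day 1. From day 2 it reached 1203, 1339 and 1482 with indirect CAP and 1235, 1799 and 2983 with PAM, all above the untreated range. The log2 fold changes were 1.06 ± 0.16 (adjusted p 0.00118) and 1.55 ± 0.29 (adjusted p 0.00341). Plk2 was 2680, 1620 and 2357 and 1999, 1547 and 4809, and Epn3 3310, 1479 and 2705 and 2577, 1399 and 6350. Line 4 was far above the other lines with PAM for both, with log2 fold changes of 2.01 ± 0.38 for Plk2 (adjusted p 0.00381) and 1.98 ± 0.43 for Epn3 (adjusted p 0.00681). With 1 of the 7 libraries left out in turn, the PAM calls were lost in 3 fits for Pmaip1, 3 for Plk2 and 5 for Epn3, and the indirect CAP call of Pmaip1 in 2.

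Mdm2 was called higher and Trp53 lower with PAM from day 2. Mdm2 was 2146, 2415 and 3117, with no overlap with its untreated values and a log2 fold change of 1.04 ± 0.20 (adjusted p 0.00373). That call was lost in 5 of the 7 fits without 1 library, and the log2 fold change over all 7 was 0.88 to 1.15. Trp53 was 1383, 1049 and 969, all below its untreated values, and fell by 1.06 on the log2 scale (SE 0.14, adjusted p 0.000925). The Trp53 call was lost in 1 of these 7 fits, and with quantile normalization and with median-ratio scaling, both of which gave -0.96, just short of the minimum fold. Over all genes tested, these scalings moved the median log2 fold change from -0.12 to -0.01 and -0.02 with PAM from day 2, and from -0.13 to -0.06 and -0.01 with PAM from day 1.

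Several genes had a lower mean with exposure from day 2 than from day 1. Ptp4a3 was 545, 463 and 529 with indirect CAP and 424, 236 and 274 with PAM, against untreated values of up to 344, and its log2 fold change was 0.98 ± 0.16 (adjusted p 0.00211) and 0.22 ± 0.24 (adjusted p 0.483). With the line as a replicate block the indirect CAP value was 1.11 (adjusted p 0.00219), which is a call. Ak1 was 37, 18 and 16 and 41, 10 and 26, which overlaps the untreated range of 14 to 39. Ccng1 was 7699, 4926 and 6666 and 7094, 4235 and 7117, and Phlda3 886, 555 and 734 and 726, 372 and 932, both partly within the untreated range. Eda2r (733, 567 and 700 and 519, 365 and 704), Dcxr (731, 516 and 858 and 746, 456 and 810), Trp53inp1 (2040, 1357 and 1408 and 1668, 837 and 1427) and Zmat3 (4761, 3312 and 3539 and 3689, 2004 and 2804) had their lowest exposed library with PAM from day 2, in line 2.

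The difference between the 2 starting days was tested directly, within each medium. From day 1 to day 2 of indirect CAP, 0 genes were called (0.0111% of all genes) and 9 had an unadjusted p under 0.05 (21.7%), with 8 genes lower in each day 2 library than in each day 1 library (14.7% of all genes). With PAM, 0 were called (0.0%) and 16 had an unadjusted p under 0.05 (26.8%), with 14 genes fully below (16.9%). In both media 21 of the 35 genes had a lower mean from day 2 and 9 a higher one, and 5 differed between the media. Within each medium, the log2 difference was negative for 22 of the 35 with indirect CAP and 25 with PAM. Over all genes tested it was negative for 9767 of 17987 and 8939 of 17354. Ptp4a3 had the lowest adjusted p in both, 0.0193 for a difference of -0.90 ± 0.11 with indirect CAP and 0.0503 for -1.72 ± 0.24 with PAM.

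Among the genes on the other side, Rap2b was higher from day 2 by 0.98 ± 0.20 with indirect CAP (adjusted p 0.0483) and by 1.31 ± 0.36 with PAM (adjusted p 0.0822), and Plk3 by 0.67 ± 0.13 (adjusted p 0.0493) and 0.73 ± 0.18 (adjusted p 0.0721). With the line as a replicate block, 2 genes were called for indirect CAP, a share of 5.71% against 3.46% of all genes. Pmaip1 was higher from day 2 by 1.02 ± 0.086 (adjusted p 6.35e-05), and Ak1 fell by 1.61 (SE 0.24, adjusted p 0.00135). When all 7 groups shared 1 fit, 2 genes were called for PAM (4.55% of all genes), Ptp4a3 at -1.72 (adjusted p 0.000135) and Rap2b at 1.31 (adjusted p 0.00383). The start day, the age of the conditioned medium and the recovery time differ together in this design and cannot be told apart.

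**Figure D4:**
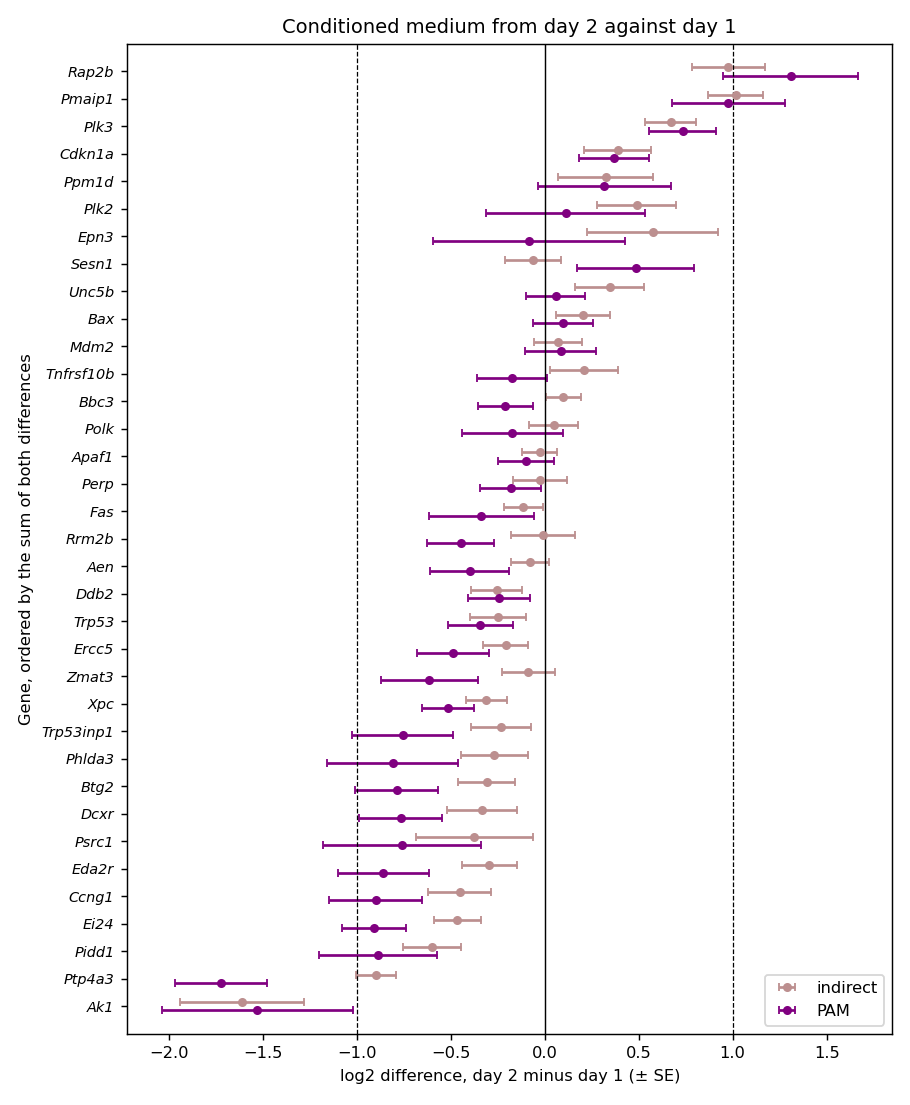
Log2 difference between exposure from day 2 and from day 1 for 35 genes, with bars for the standard error, for indirect CAP (3 libraries against 3) and PAM (3 against 3), ordered by the sum of both differences. Rap2b and Pmaip1 are at the top, near 1, and Ptp4a3 and Ak1 at the bottom, with -1.72 and -1.53 for PAM, and 0 genes were called in either medium without the replicate block.

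The rest of the pathway was followed through 3 further lists. Of 22 regulators of p53 found in the table, 20 were tested in the main comparison and 1 was called higher, Cdkn2a, which encodes the Mdm2 inhibitor p19Arf (log2 fold change 1.48, adjusted p 0.00739). That call was absent when any of 10 of the 13 libraries was left out. The kinases that activate p53 and the other regulators were not called, and the median was -0.08. The share called higher, 5.0%, was close to the 4.27% of all genes. Of 35 further p53 targets, 33 were tested and 2 were called higher and 0 lower, Gdf15, a stress hormone of the TGF-beta family (2.21, adjusted p 2.88e-06), and Sesn2, a sestrin induced by several stresses (1.05, adjusted p 9.32e-05). Their median was 0.28, and 6.06% were called higher, also close to the 4.27% of all genes, against 37.1% of the 35 p53 genes tested. The p53 genes and the further lists were chosen with earlier results known, so this contrast is no independent test.

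The last list held 12 cell division genes that are known to fall when p21 acts on the DREAM repressor. In the main comparison 12 of 12 had a negative log2 fold change, with a median of -0.62, and 0 were called, with 11 at an unadjusted p under 0.05 in limma (44.1% of all genes). With PAM from day 1 alone, 41.7% of the 12 were called lower (5.4% of all genes), with a median of -0.96. With exposure from day 2, 91.7% were called lower in both media (5.71% of all genes for indirect CAP and 10.5% for PAM), with medians of -1.45 for indirect CAP and -2.26 for PAM, while Cdkn1a was called higher in both. The mitotic kinase gene Cdk1, for example, had -1.51 (adjusted p 3.01e-05) and -2.21 (adjusted p 0.000411). The stem cell marker sums given above were lowest with PAM and with exposure from day 2, and their part in these values was not tested.

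**Figure D5:**
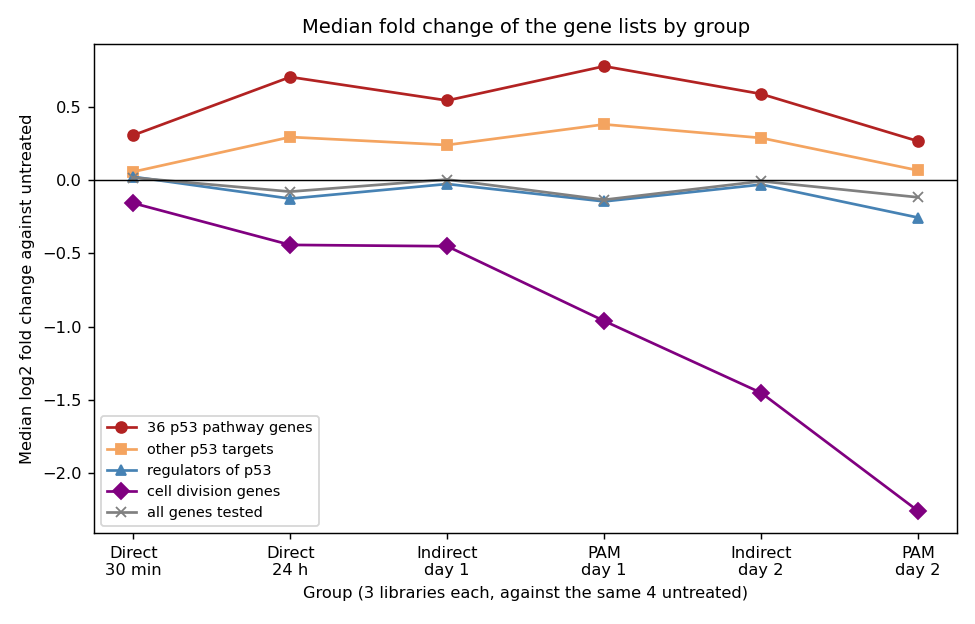
Median log2 fold change against the 4 untreated libraries for the 36 p53 pathway genes, 3 further lists and all genes tested, by treated group (3 libraries each). The p53 genes have the highest median in each group, from 0.27 with PAM from day 2 to 0.78 with PAM from day 1, and the cell division genes reach -2.26 with PAM from day 2. The 36 genes and the 3 further lists were chosen with earlier results of these data known.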

How the data were processed

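The authors trimmed paired-end reads of 100 bases with Trimmomatic 0.36, aligned them to the mouse genome GRCm38 with STAR 2.5.3a, counted them on Ensembl release 90 genes with HTSeq 0.9.1 and tested them with edgeR. They deposited 1 scaled score per gene and library (CP20M), whole numbers with a sum per library of 20007540 to 20016513. The study defines this unit per kilobase, but the scores carry no length correction. Raw counts are not analysed here, so the tests for counts were not run.

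Scores were tested as log2(score + 1) with limma 3.58.1 (R 4.3.3, trended moderated test) over all genes that scored at least 10 in 3 or more of the fitted libraries, and p-values were adjusted over all of them. Fold changes of low genes are understated on this scale. On simulated data with 200 genes changed by a fold of 4, 200 were found in each of 3 designs, with at most 1 false call. The simulated libraries were independent, had no line effect and a common spread, and low genes were left unchanged. They therefore do not give the power or the rate of false calls in the real fits. The 36 genes and the further lists were chosen with earlier results of these data known. All 36 are named in the text. Full values are given for those called in the main comparison or in at least 2 groups, promoters for called genes with the fewest mismatches, and at most 3 called genes from each further list. Some of the remaining genes were given fuller values after these had been seen. Gene positions come from GENCODE vM21, and figures were drawn with matplotlib 3.10.9. Depth was estimated from the spacing of low scores, with an error of at most 3.74% in simulated libraries.

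Libraries with the same number come from the same organoid line. After group means were removed, their median correlation was 0.684 over 63 pairs within a line and -0.398 across lines. An alternative therefore used the line as a replicate block. The untreated libraries of lines 1 and 2 correlated better with the other of these lines (median 0.681 and 0.5) than with their own (0.211 and 0.242), which leaves their labels in doubt. Calls gained or lost by the block against the untreated libraries rest on these labels. No library was a copy of another. Without the block, p-values measure the spread between libraries, and in the main comparison the 3 libraries of each exposed line were fitted as separate samples. Other alternatives were quantile normalization, median-ratio scaling, a pseudocount of 10, no filter, 1 fit over 7 groups, an adjusted p under 0.05 whatever the fold, and leaving out each library.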

Additional observations from a re-analysis of the deposited data

Results flagged for a closer look

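In the untreated group, 3 of the 36 genes had a library far from the other 3 by Dixon's ratio, which chance alone does in about 1 of 20 groups. A few such libraries among 36 genes are therefore likely by chance. Perp was 2100 in line 1, with a ratio of 0.873. Tnfrsf10b was 564, also in line 1 (0.957), and Unc5b was 394 in line 2 (0.859). Differences between treated groups passed the threshold with the replicate block for 3 genes, Dcxr between direct CAP for 24 h and 30 min (1.06 on the log2 scale), Pmaip1 between indirect CAP from day 2 and day 1 (1.02) and Ak1 in the same comparison (-1.61).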

How the results depend on the processing

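Quantile normalization, median-ratio scaling, a pseudocount of 10, no filter and the replicate block left each count of called p53 genes against the untreated libraries within 1.5 times its value, and the main count of 13 was 13 to 15 when 1 library was left out. At an adjusted p under 0.05 whatever the fold, the counts were 28 for the main comparison (33.5% of all genes), 21 for direct CAP for 24 h (17.3%), 26 for PAM from day 1 (41.8%), 21 for indirect CAP from day 1 (20.6%), 20 for indirect CAP from day 2 (43.8%), 19 for PAM from day 2 (54.3% of the p53 genes against 47.6%) and 4 for indirect CAP from day 2 against day 1 (3.37%). With the replicate block, 1 gene was called between direct CAP for 24 h and 30 min and 2 between the starting days of indirect CAP, where the fits without it gave 0. One fit over all 7 groups gave 2 calls between the starting days of PAM. The counts were 3 to 13 for direct CAP for 24 h and 5 to 8 for PAM from day 2 when 1 library was left out. Leaving out the untreated libraries of lines 1 and 2, an alternative chosen after seeing the data, gave 7 calls in the main comparison (0.806% of all genes), 10 for PAM from day 1 (5.15%), 7 for indirect CAP from day 2 (6.05%) and 0 for indirect CAP from day 1, direct CAP for 24 h and PAM from day 2, where 0, 0 and 1 of all genes were called, with 2 untreated libraries in each fit. The log2 fold change of Xpc turned to 0.043 with quantile normalization (adjusted p 0.714). For the calls lost or gained the cause was not tested. Low values such as those of Ak1 are limited by depth.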
